A study of Mus musculus with 24 samples.

Results

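The 10 genes described here encode enzymes that assemble triacylglycerol (TAG): *Gpam*, *Agpat2*, *Agpat3*, *Lpin1*, *Lpin2*, *Lpin3*, *Dgat1*, *Dgat2*, *Mogat1*, and *Mogat2*. They were chosen by name from 23972 genes in a table of read counts, and all 10 were found and tested. The study asked how liver responds to the loss of adipose tissue and to FGF21 gene therapy, and poly(A) RNA was sequenced from 24 livers of female mice. Controls were *Lmna* fl/fl *Adipoq*-Cre- mice, labelled Lmna.WT, and *Lmna* ADKO mice were *Lmna* fl/fl *Adipoq*-Cre+, so that both genotypes carried loxP sites around exons 10 and 11 of *Lmna* and deletion was driven in adipocytes, not in hepatocytes. Mice were 12 to 14 weeks old at the start, were housed at 22°C, and ate a diet with 60% of its energy from fat for 4 weeks before transduction with an AAV8 vector that expresses FGF21 or injection of vehicle, with euthanasia 8 weeks later. The labels call the treated groups Rescue. There were 7 vehicle-treated controls, 3 FGF21-treated controls, 6 vehicle-treated ADKO mice, and 8 FGF21-treated ADKO mice, each library from 1 numbered animal. Libraries of a group are numbered from the lowest to the highest animal number.

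In the main route of TAG synthesis, a glycerol-3-phosphate acyltransferase such as the mitochondrial enzyme encoded by *Gpam* adds a first fatty acid, an AGPAT enzyme adds a second to give phosphatidic acid, a lipin removes the phosphate to give diacylglycerol, and a DGAT enzyme adds the last fatty acid. A monoacylglycerol acyltransferase, encoded by the *Mogat* genes, offers another way to diacylglycerol that starts from monoacylglycerol and is best known from the intestine. In liver these steps supply TAG for lipid droplets and for secretion in very-low-density lipoproteins. Lipin 1 is also known as a nuclear coactivator of PPARα, and *Mogat1* is known as a gene that PPARγ induces in fatty liver.

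The libraries held 19863304 to 21510054 counts each. In 3 of them, library 3 of the vehicle-treated controls, library 3 of the FGF21-treated controls, and library 7 of the FGF21-treated ADKO mice, longer genes had lower values relative to shorter ones: the slope of a library's log2 deviation on log2 gene length over 9694 genes was -0.154, -0.289, and -0.331, against -0.109 to 0.128 in the other 21 libraries. Counts of members below were the same without these 3 libraries. Defining hepatocyte markers summed to 71027 to 149471 CPM (counts scaled to a common library total) per library, whereas the 6 measured adipocyte markers summed to 1.85 to 11.4 CPM, with *Lep* at 0 in 23 libraries and *Adipoq* at 0 in 15. Skeletal muscle markers summed to 23.3 CPM in library 2 and 13.0 CPM in library 5 of the FGF21-treated ADKO mice and to at most 0.270 CPM in the other 22 libraries. Liver *Lmna* does not check an adipocyte deletion and was 18.6 CPM in vehicle-treated controls and 26.7 CPM in vehicle-treated ADKO mice. Liver *Fgf21* averaged 4.01 CPM in vehicle-treated controls, 4.78 CPM in FGF21-treated controls, 7.99 CPM in vehicle-treated ADKO mice, and 5.36 CPM in FGF21-treated ADKO mice, so these counts did not set the treated groups apart. By the paper's account, plasma FGF21 protein did rise after transduction in mice housed at 22°C, and disproportionately so in ADKO mice. Animal numbers had 3 digits in 6 of the 7 vehicle-treated controls and 4 digits in 5 of the 6 vehicle-treated ADKO mice, so that genotype and number series cannot be fully told apart in that comparison. All 3 FGF21-treated controls had 4-digit numbers, so the same holds for FGF21 against vehicle in controls.

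In vehicle-treated mice, 4 of the 10 TAG assembly genes were higher in ADKO than in control liver and none was lower. They were *Gpam*, which encodes the enzyme of the first acylation, *Lpin2*, which encodes 1 of the phosphatidic acid phosphatases, and both monoacylglycerol acyltransferase genes, *Mogat1* and *Mogat2*. *Mogat1* rose 10.8-fold, *Mogat2* 3.85-fold from a level near the limit of detection, *Gpam* 2.28-fold, and *Lpin2* 2.13-fold. The acyltransferase genes of the second and last steps, *Agpat2*, *Agpat3*, *Dgat1*, and *Dgat2*, were not called. A gene was called changed at a Benjamini-Hochberg adjusted p below 0.05 over all genes and a fold change above 1.5 in edgeR's quasi-likelihood test, a rule that called 8.48% of all genes in this comparison and called 5.12% of all genes higher. At an unadjusted p below 0.05 there were 5 of the 10 genes, against 27.0% of all genes. The median log2 fold change was 0.72 over the 10 genes and 0.00 over all genes. As bulk libraries were measured, a lower share of cells of a type cannot be told apart from less RNA per cell. Marker lists of several cell types moved with genotype in these libraries. Hepatocyte markers had a median sum of 121920 CPM in controls and 93688 CPM in ADKO mice, with 3 of 8 called lower (*Serpina1c*, *Cps1*, and *Cyp2e1*) and none higher. Among the hepatocyte markers that were not called, *Ttr* (7006 and 7199 CPM) and *Tat* (516 and 592 CPM) did not have lower means in ADKO mice. Stellate cell and fibroblast markers summed to 94.7 to 191 CPM in controls and 132 to 272 CPM in ADKO mice, with 3 of 6 called higher. That list was split: *Col1a1*, *Col1a2*, *Col3a1*, and *Lrat* had higher means in ADKO mice. *Reln* (44.7 CPM in controls and 38.9 CPM in ADKO mice) and *Des* (6.99 and 5.78 CPM) had lower means and were not called. Cholangiocyte markers had a median sum of 5.49 CPM in controls and 8.24 CPM in ADKO mice, with 0 of 4 called. Macrophage markers had a median sum of 419 CPM in controls and 340 CPM in ADKO mice, with 0 of 6 called. In that list *Trem2* (1.99 CPM in controls and 4.52 CPM in ADKO mice) and *Cd68* (26.8 and 29.3 CPM) had higher means in ADKO mice. *Clec4f* (224 and 155 CPM), *Marco* (33.6 and 14.3 CPM), *Csf1r* (113 and 96.3 CPM), and *Adgre1* (36.1 and 35.9 CPM) had lower means. Endothelial markers had a median sum of 220 CPM in controls and 202 CPM in ADKO mice, with 1 of 5 called higher and 0 lower. The called gene was *Lyve1* (6.04 CPM in controls and 23.1 CPM in ADKO mice), and *Pecam1* (25.9 and 31.9 CPM) also had a higher mean. *Stab2* (74.2 and 60.4 CPM), *Kdr* (40.1 and 33.2 CPM), and *Clec4g* (71.8 and 53.5 CPM) had lower means in ADKO mice. In FGF21-treated mice 1 of 8 hepatocyte markers was called lower, 1 of 5 endothelial markers was called higher, and none of the stellate cell, cholangiocyte, or macrophage markers was called. That comparison called 2.88% of all genes. The part of these shifts in the differences between genotypes was not tested.

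**Figure D1:**
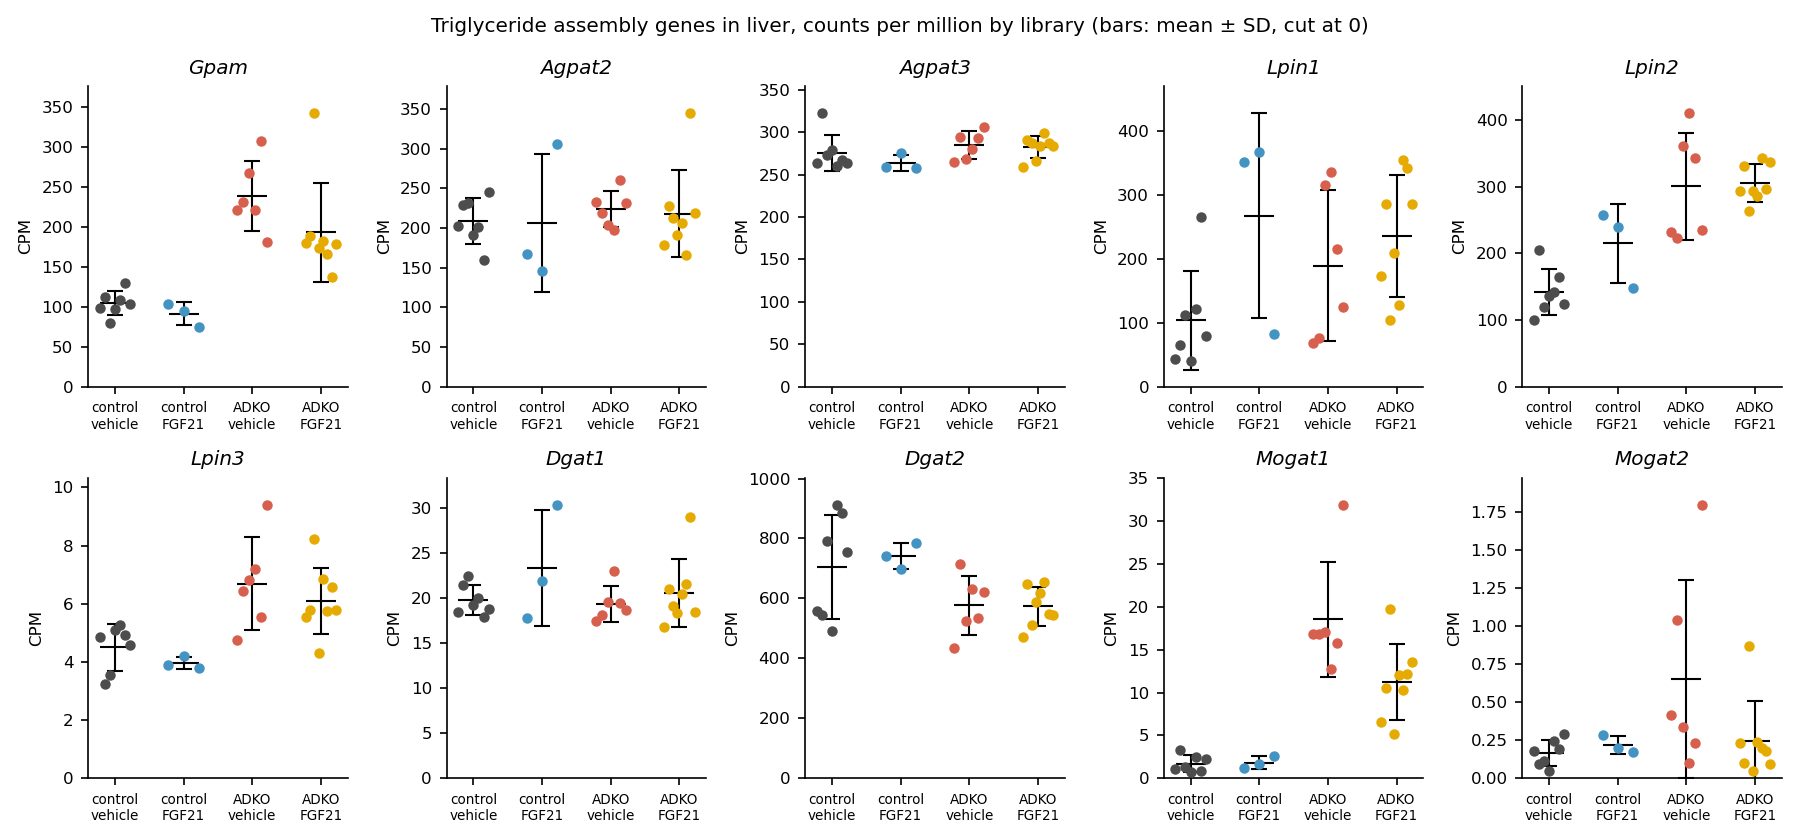
Level in CPM (linear axes from 0) of each of the 10 genes in all 24 libraries, 1 point per library, with the mean ± SD of each group as bars. The 6 vehicle-treated ADKO libraries lie above all 7 vehicle-treated controls for *Gpam*, *Lpin2*, and *Mogat1*, whereas *Agpat3* stays between 257 and 322 CPM in every library.

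Promoter sequences are shown for the 3 genes whose vehicle-treated ADKO libraries all lay above all vehicle-treated controls, *Gpam*, *Lpin2*, and *Mogat1*, as the 250 bases before a start site in RefSeq (GRCm38.p6), 5′ to 3′ on the strand of the gene. The *Gpam* window is chr19:55127239-55127488 on the minus strand, the *Lpin2* window is chr17:71183282-71183531 on the plus strand, and the *Mogat1* window is chr1:78510810-78511059 on the plus strand. Capitals mark the matches to 6 motifs that were searched on both strands: the E-box CACGTG, the nuclear receptor half-site AGGTCA, its direct repeat AGGTCANAGGTCA, the CCAAT box CCAAT, the GC box GGGCGG, and the TATA box TATAAA. The direct repeat contains the half-site.
Gpam: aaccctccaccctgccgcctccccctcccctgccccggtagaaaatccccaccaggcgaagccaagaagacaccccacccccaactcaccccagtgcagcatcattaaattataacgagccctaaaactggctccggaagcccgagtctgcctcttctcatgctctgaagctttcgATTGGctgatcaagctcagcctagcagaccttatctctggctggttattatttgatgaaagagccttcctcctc
Lpin2: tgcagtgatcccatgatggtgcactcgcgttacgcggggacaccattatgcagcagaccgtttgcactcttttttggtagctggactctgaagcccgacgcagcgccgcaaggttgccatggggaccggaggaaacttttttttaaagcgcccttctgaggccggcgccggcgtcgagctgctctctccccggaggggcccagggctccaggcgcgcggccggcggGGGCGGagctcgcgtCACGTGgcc
Mogat1: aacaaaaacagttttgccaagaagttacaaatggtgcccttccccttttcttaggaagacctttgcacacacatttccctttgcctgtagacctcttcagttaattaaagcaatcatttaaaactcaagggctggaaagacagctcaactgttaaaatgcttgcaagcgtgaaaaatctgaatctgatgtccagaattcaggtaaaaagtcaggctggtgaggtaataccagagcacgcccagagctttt
The *Gpam* window held a CCAAT box on the opposite strand, read as ATTGG, 74 to 70 bases before the start. The *Lpin2* window held a GC box 24 to 19 bases and an E-box 9 to 4 bases before the start. None of the 6 motifs was found in the *Mogat1* window. Of 32851 RefSeq windows of this length, 33.8% held a CCAAT box, 32.7% a GC box, 6.02% the E-box, 14.02% the half-site, 0.0335% the direct repeat, and 12.4% the TATA box. Windows were given for 7 of the 10 genes, and those of *Gpam*, *Lpin2*, and *Lpin3* include further start sites that are not shown. The *Gpam* window at 55099477 held 1 half-site and 1 GC box. For *Lpin2*, the window at 71183978 held 1 GC box and that at 71204654 held 3 CCAAT boxes. The *Lpin3* window at 160888168 held 1 GC box. A match is a description of letters and was not tested as a binding site.

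*Gpam* (chr19:55067268-55127238, minus strand, GRCm38) encodes GPAT1, the outer mitochondrial membrane enzyme that commits fatty acids to glycerolipids. Vehicle-treated controls ranged from 80.0 CPM to 130 CPM with a median of 104 CPM, and vehicle-treated ADKO libraries ranged from 181 CPM to 307 CPM with a median of 226 CPM. All 6 ADKO libraries thus exceeded all 7 controls, a separation seen for 4.22% of all genes in this direction. The control mean was 105 ± 15.3 CPM (SD, n = 7) and the ADKO mean 238 ± 43.5 CPM (SD, n = 6). The fitted log2 fold change was 1.19 with a standard error (SE) of 0.159 and an adjusted p of 7.12e-06 in edgeR. With the number series as a covariate it was 1.33 (adjusted p = 3.98e-05), and the 1 control with a 4-digit number had 104 CPM against a mean of 242 CPM in the 5 ADKO mice of that series.

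The difference in *Gpam* was also measured between FGF21-treated mice. The 3 FGF21-treated controls had 103, 95.4, and 75.1 CPM, and the 8 FGF21-treated ADKO libraries ranged from 137 CPM to 342 CPM with a median of 179 CPM. The groups did not overlap, and *Gpam* was called higher in ADKO mice with a log2 fold change of 1.08 (SE 0.205, adjusted p = 0.00248). Restricted to the libraries with 4-digit animal numbers, 3 controls and 4 ADKO mice, the log2 fold change was 0.86 and was not called (adjusted p = 0.0910). FGF21 itself gave log2 fold changes of -0.20 (SE 0.199, adjusted p = 0.838) in controls and -0.30 (SE 0.153, adjusted p = 0.704) in ADKO mice, neither of which was called.

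Read against the other glycerol-3-phosphate acyltransferase genes, *Gpam* took a larger part of the family in ADKO liver. On a scale of transcript level per length (TPM), *Gpam* averaged 37.1% ± 3.81 (SD, n = 7) of the summed *Gpam*, *Gpat2*, *Gpat3*, and *Gpat4* level in vehicle-treated controls and 56.9% ± 5.12 (SD, n = 6) in vehicle-treated ADKO mice. The ranges of 32.9% to 44.0% and 49.5% to 63.6% did not overlap. *Gpat4*, which encodes a GPAT of the endoplasmic reticulum, went from 46.6% to 31.7% of the family while its own log2 fold change was 0.00 (adjusted p = 0.997). With FGF21, the *Gpam* share was 33.4% ± 3.89 (SD, n = 3) in controls and 49.4% ± 7.68 (SD, n = 8) in ADKO mice.

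**Figure D2:**
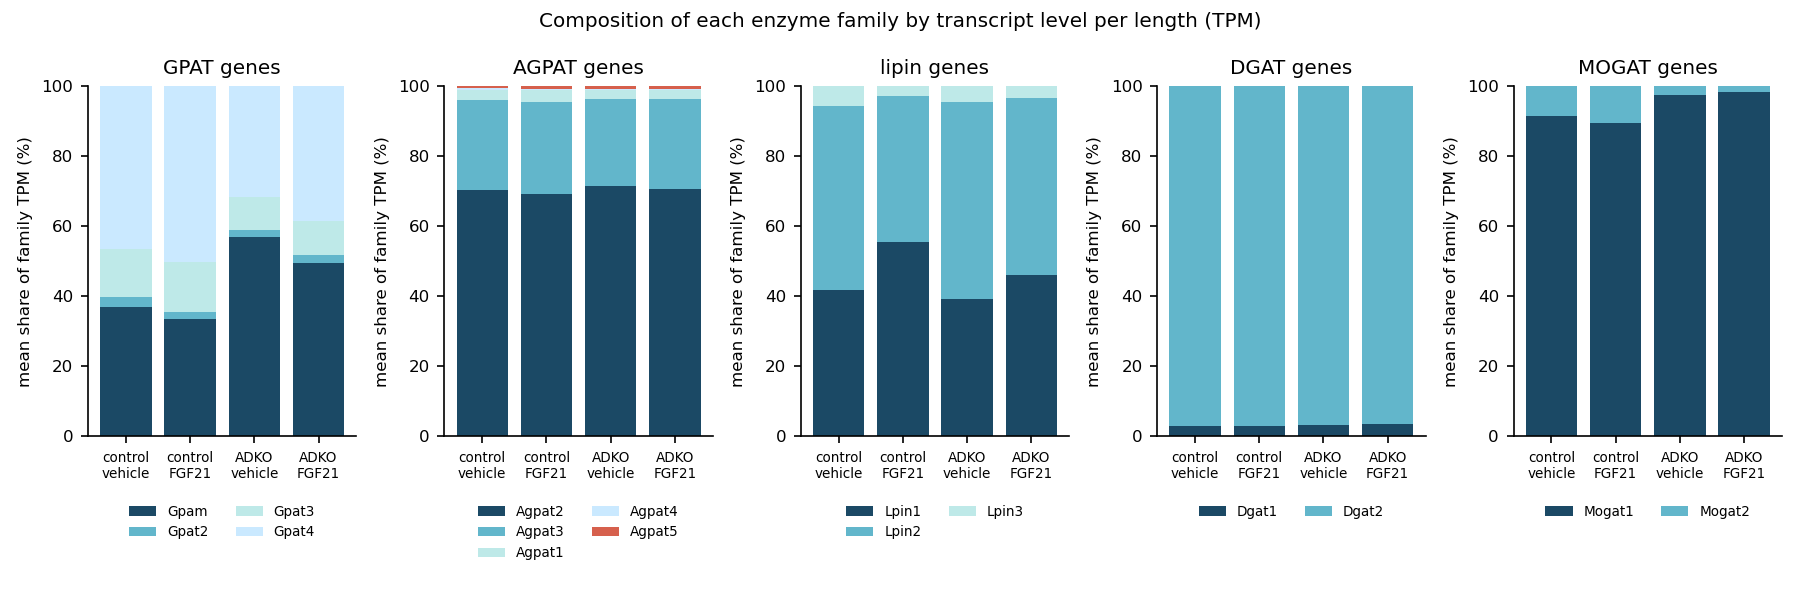
Mean share of each gene in the summed TPM of its enzyme family, in percent from 0 to 100, for the 4 groups, as stacked bars without error bars. *Gpam* goes from 37.1% of the GPAT genes in vehicle-treated controls to 56.9% in vehicle-treated ADKO mice, whereas *Dgat2* holds 96.5% to 97.1% of the DGAT genes in every group.

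*Agpat2* (chr2:26593057-26604417, minus strand) and *Agpat3* (chr10:78269178-78352489, minus strand) encode acyltransferases that turn lysophosphatidic acid into phosphatidic acid, and loss of *AGPAT2* is itself a known cause of generalized lipodystrophy. In vehicle-treated mice *Agpat2* averaged 209 ± 29.0 CPM (SD, n = 7) for controls, against 224 ± 22.8 CPM (SD, n = 6) for ADKO. *Agpat3* was 276 ± 21.5 CPM (SD, n = 7) and 285 ± 16.2 CPM (SD, n = 6) in the same groups. Groups overlapped for both genes. The log2 fold changes were 0.10 (SE 0.157, adjusted p = 0.732) for *Agpat2* and 0.05 (SE 0.0821, adjusted p = 0.780) for *Agpat3*. *Agpat3* had the smallest SE of the 10 genes in this comparison.

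With FGF21, *Agpat2* was 167, 145, and 306 CPM in the 3 controls and ranged from 166 CPM to 344 CPM in ADKO mice. The highest value of each group came from a library with low values for long genes, library 3 of the controls and library 7 of the ADKO mice. The log2 fold change between genotypes was 0.08 (SE 0.192, adjusted p = 0.880) for *Agpat2* and 0.10 (SE 0.100, adjusted p = 0.670) for *Agpat3*. FGF21 against vehicle gave log2 fold changes of -0.02 in controls and -0.04 in ADKO mice for *Agpat2*, and of -0.06 in controls and -0.01 in ADKO mice for *Agpat3*. On the TPM scale, *Agpat2* made up 69.1% to 71.4% and *Agpat3* 24.9% to 26.2% of the 5 AGPAT genes in the group means, so that their proportions were close in all groups. A stretch of 64 of the 2130 exonic bases of *Agpat2* is shared with *Egfl7* on the opposite strand.

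The lipins differed among themselves. *Lpin2* (chr17:71182560-71249817, plus strand), a lipin gene known for its expression in liver, ranged from 100.05 CPM to 205 CPM in vehicle-treated controls, with a median of 136 CPM, and from 223 CPM to 410 CPM in vehicle-treated ADKO mice, with a median of 289 CPM. No ADKO library fell within the range of the controls. Means were 141 ± 34.5 CPM (SD, n = 7) and 301 ± 80.4 CPM (SD, n = 6). *Lpin2* was called higher with a log2 fold change of 1.09 (SE 0.161, adjusted p = 2.58e-05), and it was 1.01 (adjusted p = 0.00137) with the number series as a covariate.

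*Lpin1* (chr12:16535669-16610966, minus strand), whose product also acts with PGC-1α and PPARα on fatty acid oxidation genes, varied widely within groups. Vehicle-treated controls ranged from 40.2 CPM to 265 CPM with a median of 80.1 CPM, and vehicle-treated ADKO libraries ranged from 68.9 CPM to 335 CPM with a median of 170 CPM. The groups overlapped, and only 2 of 6 ADKO libraries lay above all controls. The log2 fold change of 0.87 came with an SE of 0.487 and was not called (adjusted p = 0.265).

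*Lpin3* (chr2:160880670-160906002, plus strand) was the least abundant lipin, with 3.23 CPM to 5.26 CPM in vehicle-treated controls and 4.77 CPM to 9.40 CPM in vehicle-treated ADKO mice. Of the 6 ADKO libraries, 5 lay above all controls. Its adjusted p was 0.00937, but its 1.49-fold change (log2 0.57, SE 0.152) was just under the fold threshold of 1.5 and it was not called. With the number series as a covariate its log2 fold change was 0.45 (adjusted p = 0.130).

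In FGF21-treated mice no lipin was called between genotypes. *Lpin2* was 257, 240, and 147 CPM in the 3 controls and 263 CPM to 343 CPM in the 8 ADKO mice, with no overlap and a log2 fold change of 0.51 (SE 0.201, adjusted p = 0.174). *Lpin3* was 3.90, 4.19, and 3.79 CPM in controls and 4.30 CPM to 8.21 CPM in ADKO mice, again without overlap, with a log2 fold change of 0.62 (SE 0.194, adjusted p = 0.0667). *Lpin3* passed both thresholds in this comparison with DESeq2 (adjusted p = 0.0304), with the length slope as a covariate (adjusted p = 0.0354), with edgeR's expression filter (adjusted p = 0.0457), and without ADKO library 4 (adjusted p = 0.0360). It did not pass under the other 6 settings or with any other library left out, and its adjusted p reached 0.247 in the libraries with 4-digit animal numbers. *Lpin1* was 352, 368, and 82.9 CPM in controls and 105 CPM to 356 CPM in ADKO mice, with a log2 fold change of -0.18 (SE 0.586, adjusted p = 0.922).

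FGF21 against vehicle in controls gave the smallest unadjusted p values of the 10 genes for 2 lipins, and neither passed adjustment. *Lpin2* had a log2 fold change of 0.60 (SE 0.195, unadjusted p = 0.00436, adjusted p = 0.488) and *Lpin1* of 1.37 (SE 0.576, unadjusted p = 0.0275, adjusted p = 0.755). In both genes 2 of the 3 FGF21-treated controls lay above all 7 vehicle-treated controls, and the remaining one was library 3, which had low values for long genes. Without that library the log2 fold changes were 0.81 (adjusted p = 0.240) for *Lpin2* and 1.79 (adjusted p = 0.737) for *Lpin1*. Over all fits with 1 library left out they ranged from 0.45 to 0.81 for *Lpin2* and from 1.07 to 1.80 for *Lpin1*. Over the other settings they ranged from 0.52 to 0.77 and from 0.87 to 1.82. FGF21 and the number series of the animals cannot be fully told apart in this comparison. *Lpin3* had a log2 fold change of -0.18 (SE 0.196, adjusted p = 0.838). In ADKO mice, FGF21 gave log2 fold changes of 0.02 for *Lpin2*, 0.32 for *Lpin1*, and -0.13 for *Lpin3*, with adjusted p values from 0.850 to 0.980. The test of whether the genotype difference in *Lpin2* depended on treatment gave a log2 difference of -0.58 (SE 0.251, unadjusted p = 0.0281, adjusted p = 0.984).

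*Lpin1* and *Lpin2* rose and fell together from library to library. After the mean of each group was taken off, their log2 CPM values had Pearson r = 0.72 over 24 libraries and 0.71 over the 21 libraries without the 3 named above, given as a description of points that share library and depth. On the TPM scale the 3 lipins summed to 51.8 ± 20.8 TPM (SD, n = 7) in vehicle-treated controls and 110 ± 44.8 TPM (SD, n = 6) in vehicle-treated ADKO mice, and to 99.3 ± 57.7 TPM (SD, n = 3) and 111 ± 24.8 TPM (SD, n = 8) with FGF21. *Lpin2* made up 52.3% of that sum in vehicle-treated controls and 56.3% in vehicle-treated ADKO mice, and *Lpin1* made up 41.9% and 39.2%.

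**Figure D3:**
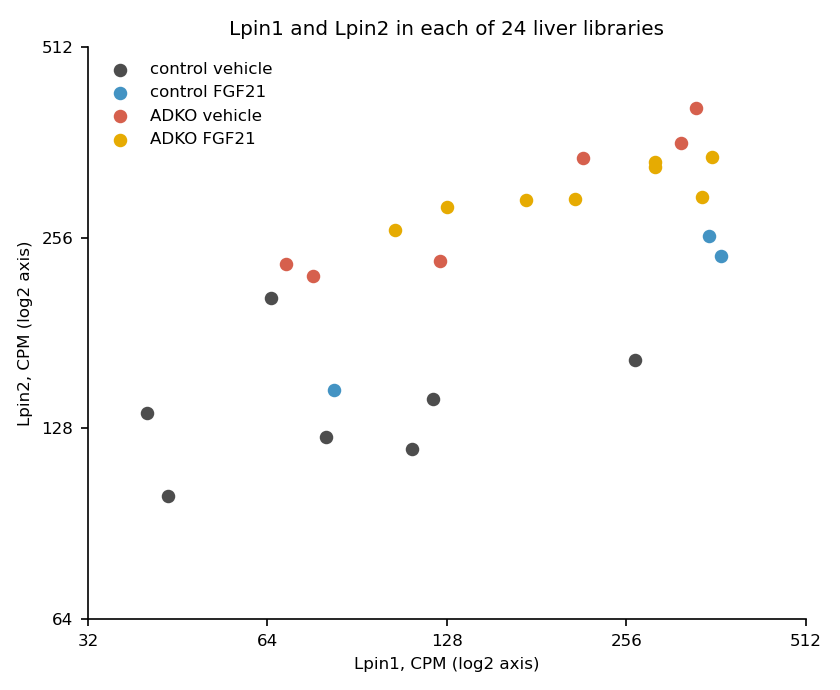
*Lpin1* against *Lpin2* in CPM, both on log2 axes, 1 point per library and 1 color per group. The 14 ADKO libraries lie at or above 223 CPM of *Lpin2* over the whole range of *Lpin1*, and 2 of the 3 FGF21-treated controls sit at the right with 352 and 368 CPM of *Lpin1*.

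The 2 genes of the last step, *Dgat1* (chr15:76502015-76511953, minus strand) and *Dgat2* (chr7:99153658-99182719, minus strand), encode unrelated acyltransferases with the same product. *Dgat2*, tied in liver to newly made fatty acids, was the most abundant of the 10 genes on the TPM scale in all 4 groups and made up 96.5% to 97.1% of the DGAT sum. *Dgat2* ranged from 491 CPM to 912 CPM in vehicle-treated controls and from 433 CPM to 716 CPM in vehicle-treated ADKO mice, with medians of 754 CPM and 578 CPM. The groups overlapped, and the log2 fold change of -0.29 (SE 0.142, adjusted p = 0.187) was not called. *Dgat1* was 19.8 ± 1.65 CPM (SD, n = 7) and 19.4 ± 1.96 CPM (SD, n = 6), with a log2 fold change of -0.03 (SE 0.118, adjusted p = 0.930).

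With FGF21, *Dgat2* was 741, 700, and 785 CPM in the 3 controls and 470 CPM to 656 CPM in the 8 ADKO mice. All ADKO libraries lay below all controls, as they did for 2.37% of all genes, but the log2 fold change of -0.37 (SE 0.169, adjusted p = 0.257) was not called. *Dgat1* was 17.8, 21.9, and 30.4 CPM in controls and 16.8 CPM to 29.1 CPM in ADKO mice, with a log2 fold change of -0.18 (SE 0.142, adjusted p = 0.552). FGF21 against vehicle gave log2 fold changes of 0.07 in controls and -0.01 in ADKO mice for *Dgat2*, and of 0.24 in controls and 0.09 in ADKO mice for *Dgat1*, none of them called.

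*Mogat1* (chr1:78510991-78538173, plus strand) had the largest difference of the 10 genes. Vehicle-treated controls held 16 to 70 counts, or 0.737 CPM to 3.28 CPM with a median of 1.33 CPM. Vehicle-treated ADKO libraries held 262 to 747 counts, or 12.8 CPM to 31.9 CPM with a median of 16.9 CPM. The lowest ADKO library was thus several times above the highest control. Means were 1.71 ± 0.963 CPM (SD, n = 7) and 18.6 ± 6.74 CPM (SD, n = 6), and the log2 fold change was 3.44 (SE 0.343, adjusted p = 5.82e-07). It was 3.28 (adjusted p = 1.75e-05) with the number series as a covariate.

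On the TPM scale, *Mogat1* moved from below *Dgat1* to above it. *Mogat1* averaged 2.43 ± 1.44 TPM (SD, n = 7) beside 14.3 ± 1.19 TPM for *Dgat1* in vehicle-treated controls, and 28.9 ± 11.4 TPM (SD, n = 6) beside 15.2 ± 1.35 TPM in vehicle-treated ADKO mice. The order of mean TPM in vehicle-treated controls was *Dgat2*, *Agpat2*, *Agpat3*, *Gpam*, *Lpin2*, *Lpin1*, *Dgat1*, *Lpin3*, *Mogat1*, and *Mogat2*. In vehicle-treated ADKO mice *Mogat1* stood before *Dgat1* and the rest of the order was the same. Neighbors whose ranges of mean ± SD overlapped were *Gpam* and *Lpin2*, *Lpin2* and *Lpin1*, *Lpin1* and *Dgat1*, and *Lpin3* and *Mogat1* in controls, and *Agpat3* and *Gpam*, *Gpam* and *Lpin2*, *Lpin2* and *Lpin1*, and *Lpin1* and *Mogat1* in ADKO mice.

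*Mogat1* remained higher in ADKO liver when both genotypes received FGF21. The 3 FGF21-treated controls had 1.19, 1.70, and 2.62 CPM, and the 8 FGF21-treated ADKO libraries ranged from 5.18 CPM to 19.8 CPM with a median of 11.3 CPM. There was no overlap, and the log2 fold change of 2.63 (SE 0.467, adjusted p = 0.00244) was called. It was 2.71 (adjusted p = 0.00159) in the libraries with 4-digit animal numbers. Between FGF21 and vehicle, *Mogat1* had log2 fold changes of 0.09 (SE 0.469, adjusted p = 1) in controls and -0.72 (SE 0.291, unadjusted p = 0.0217, adjusted p = 0.704) in ADKO mice, where 6 of 8 FGF21-treated libraries lay below all 6 vehicle-treated ones. That difference in ADKO mice was not called, and the test for a dependence on genotype gave -0.81 (SE 0.553, adjusted p = 0.995).

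A part of *Mogat1*, 200 of its 1558 exonic bases, overlaps the gene BC035947 on the opposite strand. BC035947 averaged 0.0824 CPM in vehicle-treated controls and 0.971 CPM in vehicle-treated ADKO mice, a small share of the *Mogat1* level. Its log2 fold change of 3.47 (adjusted p = 1.86e-05 in edgeR) was close to that of *Mogat1*. The libraries were prepared with dUTP in the second strand, and whether the counting used strand is not given in the sources used here, so reads of the shared bases may belong to either gene.

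*Mogat2* (chr7:99219084-99238619, minus strand), best known for fat absorption in the intestine, was close to the limit of detection. Vehicle-treated controls held 1 to 6 counts per library, and vehicle-treated ADKO libraries held 9, 23, 8, 2, 5, and 42 counts. Of these, 4 lay above all controls in CPM and 2 lay within their range, with means of 0.166 ± 0.0876 CPM (SD, n = 7) and 0.652 ± 0.647 CPM (SD, n = 6). The log2 fold change of 1.94 (SE 0.574, adjusted p = 0.0202) was called. It was not called with the number series as a covariate (adjusted p = 0.0833), without ADKO library 2 (adjusted p = 0.0509), or without ADKO library 6 (log2 fold change 1.32, adjusted p = 0.132). The intestinal marker *Lct* had at most 1 count in any library, and *Muc2* at most 2, while the sum of 5 intestinal markers, led by *Fabp2*, which hepatocytes also express, was 55.4 to 144 CPM in vehicle-treated controls and 198 to 247 CPM in vehicle-treated ADKO mice. Of the same markers, *Slc5a1* averaged 1.69 CPM in these controls and 2.55 CPM in these ADKO mice, and *Vil1* 0.138 and 0.260 CPM. The part of intestinal RNA in the *Mogat2* difference was not tested.

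With FGF21, *Mogat2* held 6, 4, and 3 counts in controls and 1 to 21 counts in ADKO mice, with a log2 fold change between genotypes of 0.18 (SE 0.759, adjusted p = 0.943). FGF21 against vehicle gave 0.40 (SE 0.803, adjusted p = 0.921) in controls and -1.36 (SE 0.522, unadjusted p = 0.0144, adjusted p = 0.704) in ADKO mice. At these counts differences can be missed, and no limit of detection was computed. The difference of -1.36 in ADKO mice was itself not called.

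In FGF21-treated mice, 2 of the 10 genes were thus called between genotypes, *Gpam* and *Mogat1*, both higher in ADKO mice. The rule called 2.88% of all genes in this comparison and called 1.61% higher. *Gpam*, *Lpin2*, *Lpin3*, and *Mogat1* had every ADKO library above every control, as did 2.98% of all genes. There were 5 of the 10 genes at an unadjusted p below 0.05, against 16.9% of all genes. The 2 comparisons between genotypes used different libraries within 1 fit, and the interaction of genotype and treatment was called for none of the 10 genes, with 1 at an unadjusted p below 0.05, beside 0.00417% of all genes called and 4.86% at an unadjusted p below 0.05. The median log2 fold change was 0.14 over the 10 genes and 0.02 over all genes.

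**Figure D4:**
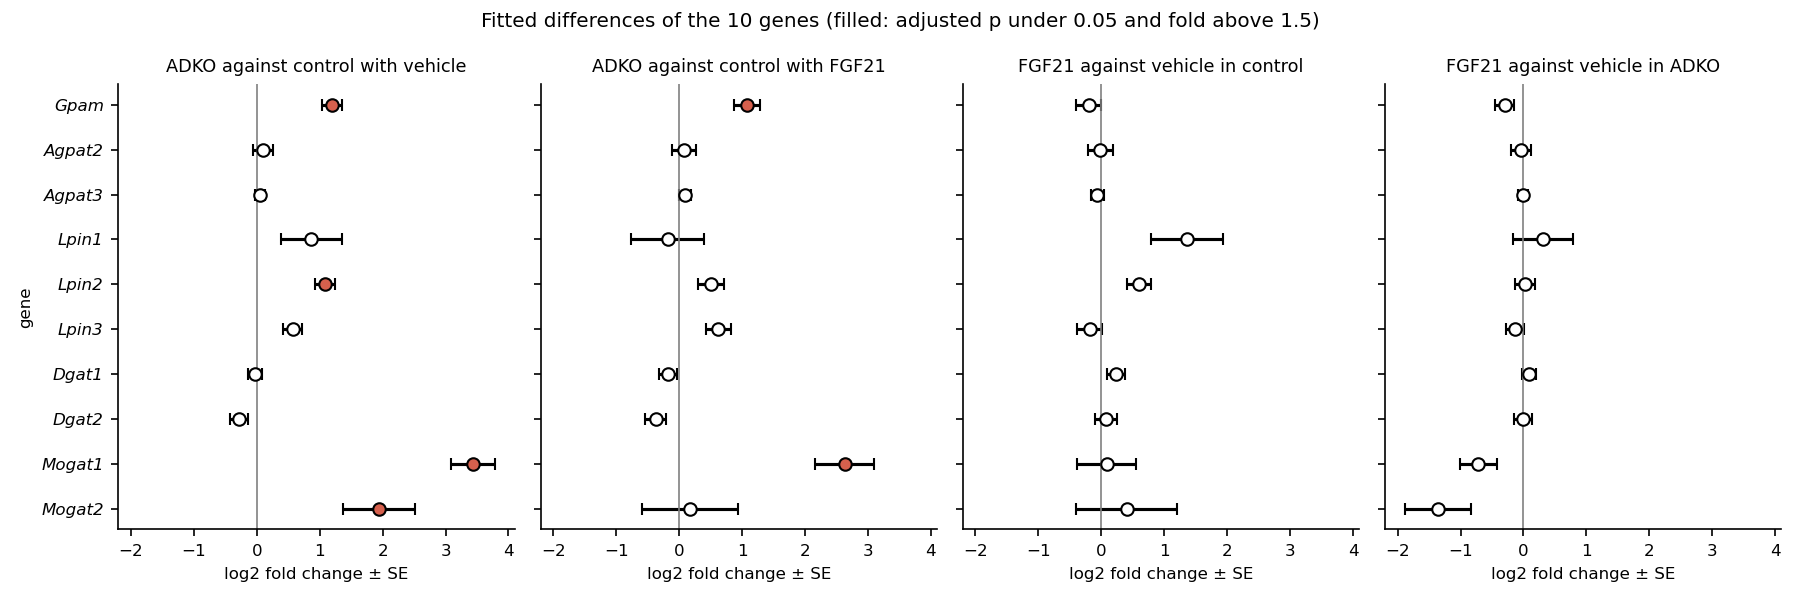
Fitted log2 fold change ± SE of each gene in the 4 comparisons, with filled points for those called. *Mogat1* at 3.44 and 2.63 and *Gpam* at 1.19 and 1.08 are filled in both comparisons of genotypes, and no point is filled in the comparisons of FGF21 with vehicle.

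FGF21 changed none of the 10 genes in either genotype by the rule used. In controls 0.0542% of all genes were called, and 2 of the 10 genes, against 6.16% of all genes, had an unadjusted p below 0.05. In ADKO mice edgeR called 0 of the 10 genes and 0 of all genes (0%), and again 2 of the 10 genes, *Mogat1* and *Mogat2*, against 6.71% of all genes, had an unadjusted p below 0.05. DESeq2 called 0 of the 10 genes in both comparisons, with 38 genes called in controls and 15 in ADKO mice.

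One FGF21-treated ADKO library weighed on these values. Library 3 had the highest *Gpam* (342 CPM), *Mogat1* (19.8 CPM), *Mogat2* (21 counts), and *Lpin3* (8.21 CPM) of its group and the lowest *Lpin1* (105 CPM) and *Lpin2* (263 CPM). Its liver *Fgf21* of 9.99 CPM was also the highest of the group, as were its sums of stellate cell markers at 335 CPM and of cholangiocyte markers at 17.3 CPM, and the part of these in the result was not tested. Without that library, FGF21 against vehicle in ADKO mice gave log2 fold changes of -0.47 (adjusted p = 0.0733) for *Gpam*, -0.89 (adjusted p = 0.205) for *Mogat1*, and -2.05 (adjusted p = 0.0717) for *Mogat2*, with still 0 of the 10 genes called but 61 of all genes.

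Other enzymes of the same steps were not called. Over all genes, the rule called 8.48% between vehicle-treated genotypes and 2.88% between FGF21-treated genotypes. Counts of 0 in lists this short are near those shares and do not set these enzymes apart from genes at large. In vehicle-treated mice 0 of 7 other GPAT and AGPAT genes, 0 of 6 genes for other phosphatidic acid phosphatases and lipin control, and 0 of 3 measured DGAT-like and wax synthase genes passed, and the counts were also 0 in FGF21-treated mice. Of 16 genes that use phosphatidic acid and diacylglycerol for phospholipids, 1 passed in vehicle-treated mice: *Chpt1*, which encodes a cholinephosphotransferase that turns diacylglycerol into phosphatidylcholine. The control mean of *Chpt1* was 93.9 ± 16.1 CPM (SD, n = 7) and its ADKO mean 270 ± 40.4 CPM (SD, n = 6), with a log2 fold change of 1.53 (SE 0.124, adjusted p = 2.98e-09). It was 1.03 (SE 0.159, adjusted p = 0.000275) between FGF21-treated genotypes.

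The supply of glycerol 3-phosphate showed 3 of 8 genes higher and none lower in vehicle-treated ADKO mice. Over all genes, the rule called 5.12% higher in that comparison and 1.61% higher between FGF21-treated genotypes. *Gk*, which encodes glycerol kinase, averaged 73.5 CPM in controls and 133 CPM in ADKO mice (log2 fold change 0.86, SE 0.118, adjusted p = 1.09e-05). *Gpd1*, which encodes cytosolic glycerol-3-phosphate dehydrogenase, averaged 425 CPM and 692 CPM (log2 fold change 0.70, SE 0.139, adjusted p = 0.000755). *Aqp7*, a glycerol channel gene best known from adipocytes, held 0 to 6 counts per library in controls and 22 to 89 counts in ADKO mice (adjusted p = 3.15e-05). The 6 measured adipocyte markers summed to 2.95 to 11.4 CPM in vehicle-treated controls and 2.48 to 4.01 CPM in vehicle-treated ADKO mice, with 1 called lower (*Adrb3*) and none higher. Among them *Plin1* had at most 6 counts in any library, whereas *Cfd*, the adipsin gene, averaged 0.422 CPM in vehicle-treated controls and 1.48 CPM in vehicle-treated ADKO mice (log2 fold change 1.79, SE 0.626, adjusted p = 0.0568) and was not called. The part of adipocyte RNA in the *Aqp7* difference was not tested. In FGF21-treated mice *Gk* (log2 fold change 0.70, adjusted p = 0.00679) and *Aqp7* (1 to 2 counts in controls and 10 to 107 in ADKO mice, adjusted p = 0.0190) were called and *Gpd1* was not.

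Among 10 genes for factors known to act on TAG assembly genes, 1 was higher and 1 lower in vehicle-treated ADKO mice. The rule called 8.48% of all genes in that comparison and 2.88% between FGF21-treated genotypes. *Pparg*, the nuclear receptor gene tied to *Mogat1*, averaged 12.1 ± 2.57 CPM (SD, n = 7) and 22.6 ± 3.15 CPM (SD, n = 6), with no overlap and a log2 fold change of 0.90 (SE 0.130, adjusted p = 1.74e-05). *Mlxipl*, which encodes the carbohydrate-responsive factor ChREBP, averaged 222 ± 26.8 CPM (SD, n = 7) and 115 ± 13.3 CPM (SD, n = 6), and fell by 0.95 on the log2 scale (SE 0.130, adjusted p = 8.99e-06). *Srebf1*, which encodes the insulin-responsive factor SREBP-1 that acts on *Gpam*, had a log2 fold change of 0.04 (SE 0.139, adjusted p = 0.924). In FGF21-treated mice *Pparg* (log2 fold change 0.59, adjusted p = 0.0365) and *Mlxipl* (fell by 0.60 on the log2 scale, adjusted p = 0.0202) were called again, and *Srebf1* (0.35, adjusted p = 0.304) was not.

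For comparison, 3 of 7 lipogenic genes were called higher in vehicle-treated ADKO mice and none lower. The rule called 5.12% of all genes higher in that comparison and 1.61% higher between FGF21-treated genotypes. *Scd1*, the stearoyl-CoA desaturase gene, had a log2 fold change of 3.00 (SE 0.561, adjusted p = 0.000871), *Acacb*, whose product makes the malonyl-CoA that restrains fatty acid oxidation, of 1.01 (SE 0.268, adjusted p = 0.0116), and *Me1*, the malic enzyme gene, of 0.89 (SE 0.182, adjusted p = 0.00116). *Scd1* was also called in FGF21-treated mice (log2 fold change 4.16, adjusted p = 0.00673). None of the genes in these lists was called between FGF21 and vehicle in either genotype. Those comparisons called 0.0542% of all genes in controls and 0% in ADKO mice.

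**Figure D5:**
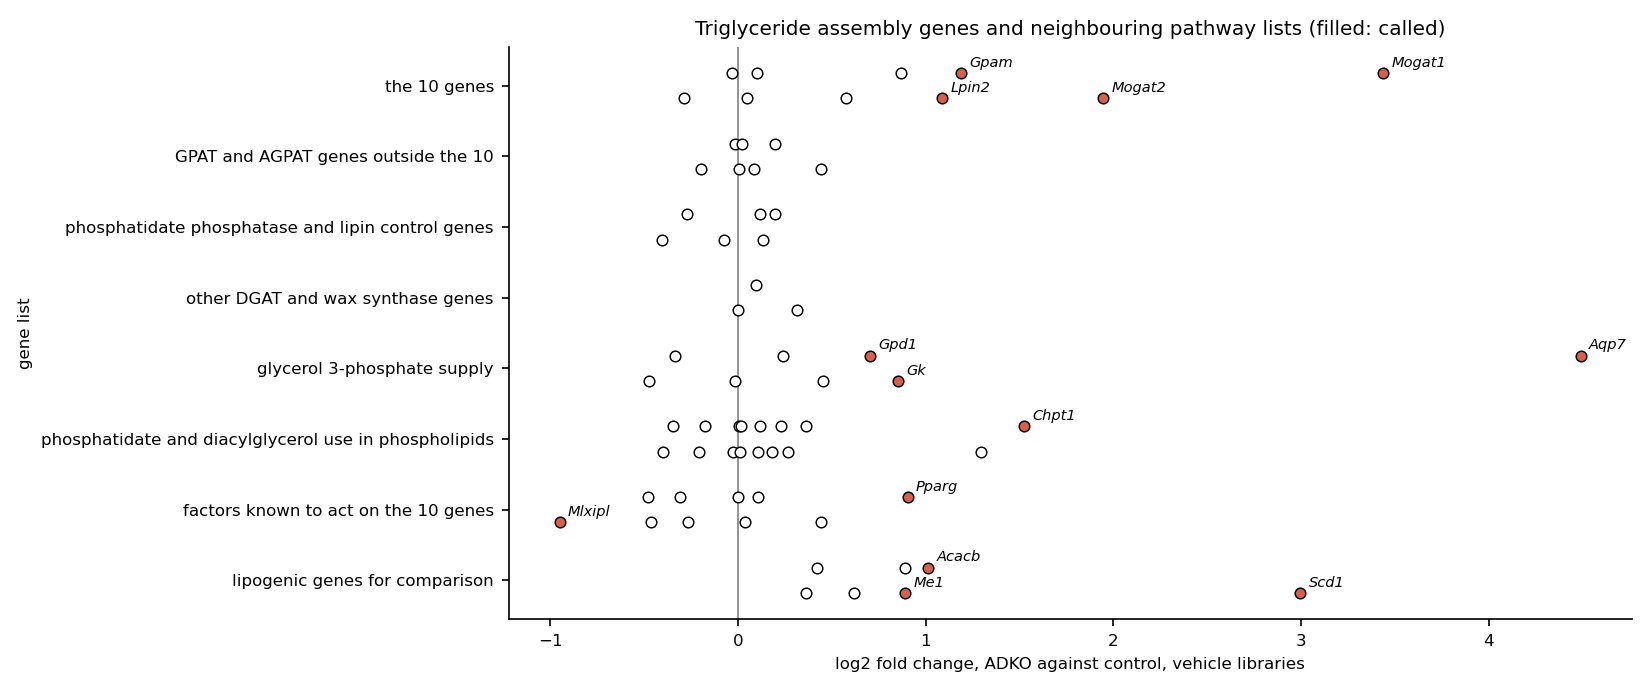
Log2 fold change between vehicle-treated ADKO and control mice for the 10 genes and for 7 lists of neighboring pathway genes, 1 point per gene, filled and named where called. *Mogat1* at 3.44 and *Gpam* at 1.19 stand among the filled points of the first line. The lines of other GPAT, AGPAT, phosphatase, and DGAT genes hold open points only, where 8.48% of all genes were called.

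Genes whose library-to-library pattern was most like that of a TAG assembly gene were ranked among 12491 genes by Pearson r of log2 CPM over 24 libraries after group means were taken off, as a description. For *Gpam* they were *Osbpl8* (r = 0.84), *Txnrd1* (0.80), and *Ints2* (0.78). For *Mogat1* they were *Sae1* (0.84), *Actr1b* (0.80), and *Aldh1a1* (0.77). *Lpin1* was most like *Lurap1l* (0.91), *Mast3* (0.84), and *Herpud1* (0.84). *Dgat2* was most like *Cyp2a5* (0.92), *Ciart* (0.88), and *Usp2* (0.87), where *Ciart* and *Usp2* are known as genes tied to the circadian clock. For *Agpat2* they were LTO1 (0.92), *Ube2f* (0.91), and *Gps1* (0.91), and these values were 0.77, 0.79, and 0.77 without the 3 libraries that had low values for long genes.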

How the data were processed

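Liver poly(A) libraries from 24 female mice were analysed. The deposited values were raw gene counts. Per the labels, the authors trimmed reads with cutadapt 4.8, checked them with FastQC 0.11.8, and used STAR 2.7.8a and RSEM 1.3.3 on GRCm38, so the whole-number counts may be rounded estimates, and genes without counts had been removed. Library totals were 19863304 to 21510054, and 0 columns lacked a sample. Groups came from the labels, which name genotype and treatment, with the treatment taken as FGF21 from the study's methods. Every library came from a separate animal, so p values measure the spread between animals.

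The counts were fitted with edgeR 4.0.16 (R 4.3.3) by TMM scaling and the quasi-likelihood test in 1 fit of 4 groups, with Benjamini-Hochberg adjustment over 23972 genes, and the script was tested on simulated data. A gene was called at an adjusted p below 0.05 and a fold change above 1.5. CPM used TMM-scaled totals. TPM used union exon lengths from GENCODE M21, given for 23926 genes. The low-count floor was 3 counts.

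The members and gene lists were chosen with earlier results of these data known. All 10 members, every called list gene (up to 4 per list and comparison), *Srebf1*, *Mlxipl*, and *Pparg*, and the 3 genes with the most alike pattern for 5 members were to be named. Genes named for overlaps, markers, or a library that stood apart were chosen after their values were seen. Alternatives were DESeq2 1.42.0, its size factors in edgeR, edgeR's expression filter, the number series or length slope as a covariate, only the groups or number series compared, no fold threshold, and each library left out in turn. Within groups, 67 pairs of libraries were compared and none agreed within sampling noise (chi-square per degree of freedom of at least 14.1).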

Additional observations from a re-analysis of the deposited data

Results flagged for a closer look

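In 30 groups of 6 to 8 libraries, the highest and lowest values were compared with the rest. Of these groups, 7 had a highest library that stood apart by Dixon's criterion. For independent groups of normally spread values, chance alone marks about 1 group of 20. The values here were CPM on a linear scale and the same libraries recur across genes, so an excess of marked groups was not tested. In FGF21-treated ADKO mice these were *Gpam* at 342 CPM and *Mogat2* at 0.871 CPM in library 3, and *Agpat2* at 344 CPM and *Dgat1* at 29.1 CPM in library 7, which also had low values for long genes. In vehicle-treated ADKO mice, *Mogat1* in library 6 was 31.9 CPM, and that library also held the highest *Mogat2* count of 42. In vehicle-treated controls they were *Agpat3* in library 2 at 322 CPM and *Lpin1* in library 6 at 265 CPM.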

How the results depend on the processing

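Counts of called genes among the 10 ranged from 3 to 5 in vehicle-treated mice and from 1 to 3 in FGF21-treated mice over the settings tried, and were 0 for FGF21 against vehicle and for the interaction under every setting run. The count of 1 came from the libraries with 4-digit animal numbers, where *Gpam* was not called, and that fit called 148 of all genes where the fit of 24 libraries called 690. No paired analysis was possible because animal numbers are not shared between groups. For all genes in FGF21-treated mice, edgeR restricted to the groups compared called 344 and 402 were called without the 3 libraries that had low values for long genes. In the same comparison 1149 were called without library 7 of the ADKO mice, 339 without library 3 of the controls, and 416 without library 2 of the controls. For FGF21 in controls 13 genes were called, 0 with the number series, 38 with DESeq2, and 3 to 26 with 1 library left out. *Gpam*, *Lpin2*, and *Mogat1* in vehicle-treated mice and *Mogat1* in FGF21-treated mice were called under every setting run.

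Signs turned only for differences that were not called, and the cause was not tested. Between vehicle-treated genotypes these were *Agpat2* with the number series (-0.0015) and *Dgat1* without the 3 libraries (0.010). Between FGF21-treated genotypes they were *Lpin1* with the number series (0.067) or 4-digit libraries only (0.052) and *Mogat2* with 4-digit libraries only (-0.33). For FGF21 in controls they were *Agpat2* with DESeq2 size factors in edgeR (0.00105) or DESeq2 (0.00106), *Dgat2* (-0.082) and *Mogat1* (-0.10) with the number series, and *Mogat1* without the 3 libraries (-0.30). For FGF21 in ADKO mice they were *Agpat2* (0.0083), *Agpat3* (0.0039), and *Dgat2* (0.059) with the number series, *Agpat2* with 4-digit libraries only (0.073), and *Dgat1* without the 3 libraries (-0.0010). For the interaction they were *Agpat2* with the number series (0.16), the length slope (0.073), or without the 3 libraries (0.22), and *Dgat1* (0.036) and *Dgat2* (0.14) with the number series.

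Leaving out 1 library at a time also turned signs of uncalled differences. Between genotypes the log2 fold changes ranged from -0.088 to 0.0050 for *Dgat1* with vehicle, and with FGF21 from -0.12 to 0.48 for *Agpat2*, from -0.61 to 0.12 for *Lpin1*, from -0.34 to 0.049 for *Dgat1*, and from -0.51 to 0.41 for *Mogat2*. For FGF21 in controls they ranged from -0.42 to 0.18 for *Agpat2* and from -0.25 to 0.33 for *Mogat1*. For FGF21 in ADKO mice they ranged from -0.16 to 0.010 for *Agpat2*, from -0.033 to 0.011 for *Agpat3*, from -0.050 to 0.13 for *Lpin2*, and from -0.078 to 0.064 for *Dgat2*. For the interaction they ranged from -0.22 to 0.38 for *Agpat2*, from -0.029 to 0.17 for *Lpin3*, and from -0.31 to 0.085 for *Dgat1*. With 3 FGF21-treated controls and 1 to 42 counts of *Mogat2* per library, differences may have been missed, and no limit of detection was computed.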

Other observations

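*Agpat2* and *Dgat1* moved together across libraries, with Pearson r = 0.67 over 24 libraries after group means were taken off, given as a description. Without the 3 libraries that had low values for long genes, r was -0.05 over 21 libraries. *Lpin1* and *Lpin2* showed no such drop, with r = 0.72 and 0.71.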
